A study of Mus musculus with 195 samples.

Results

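The nuclear genes for subunits of the mitochondrial respiratory chain and ATP synthase were followed in single mouse cells. They were chosen by annotation symbol as the protein-coding genes that start with Nduf (complex I and its assembly factors), with Uqcr (complex III), with Cox4 to Cox8 (complex IV) or with Atp5 (complex V), together with Sdha to Sdhd (complex II). The annotation holds 94 such genes, and 91 of them have a row among the 19736 genes of the gene table, all 91 with at least 1 molecule in the cells kept. By symbol alone, 38 were assigned to complex I, 8 to its assembly factors, 4 to complex II, 8 to complex III, 16 to complex IV and 17 to complex V. No gene was moved for what is known of its protein. Ndufa4l2 and Atp5s, counted under complexes I and V, are not taken as subunits, and 81 of the genes are. Cox4i2, Cox8c and a further identifier of Atp5o were not analysed here. A total of 13 genes with matching symbols were left out by their annotated type, 12 of them processed pseudogenes. Of these 13, 11 are in the table, with 67 molecules in all.

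Complexes I to IV pass electrons from NADH and succinate to oxygen across the inner mitochondrial membrane, and complexes I, III and IV pump protons as they do so. ATP synthase, or complex V, lets the protons flow back and makes ATP. Most subunits are encoded in the nucleus and imported, whereas a small core of complexes I, III, IV and V is encoded by the mitochondrial genome, so that both genomes must be read to build a complex. Pluripotent stem cells are known for a strong reliance on glycolysis, and media for embryonic stem cells are known to alter their metabolism.

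The counts came from BATSeq, a method that tags polyadenylated RNA of a sorted cell with a cell barcode and a unique molecular identifier and reads its 3′ end. Each transcript molecule that is read is thus counted once. Levels still moved with transcript length between libraries, as described in the last part. All cells derive from the 46C line, embryonic stem cells with a GFP reporter in the Sox1 gene, and small cells in G0/G1 were sorted. ESC-2i cells were grown without serum in 1 µM PD0325901, an inhibitor of MEK, 3 µM CHIR99021, an inhibitor of GSK3, and 10 ng/ml LIF. ESC-FCS cells were grown in 10% serum with 10 ng/ml LIF, and NSC were neural stem cells derived from the embryonic stem cells, sorted for the GFP signal and grown with EGF and bFGF. Each population had 48 cells in 2 library batches. As replicate cultures are not named in the labels or methods, a population counts as 1 sample, no test was made between populations, and the exact 95% Poisson and binomial intervals given below cover counting error only.

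The gene table keeps 33 ESC-2i, 33 ESC-FCS and 41 NSC cells, with 368362, 226683 and 151877 molecules on genes. The cells of ESC-2i held between 5342 and 21050 molecules, those of ESC-FCS between 1079 and 14819, and those of NSC between 1234 and 9037. A set of 24 cell barcodes was used again in every library batch, and a cell is told apart only together with its batch barcode. The 10 pluripotency markers summed to 32.5, 28.4 and 1.25 per 10000 in the order ESC-2i, ESC-FCS and NSC, and the 10 neural stem cell markers to 1.98, 1.81 and 55.2. In NSC, Nanog and Pou5f1 were at 0, and so was the neural stem cell marker Pax6. Markers of astrocytes summed to 15.5 in NSC, all of it from Aldoc with 235 molecules, whereas Gfap was at 0. Their part in the values below was not tested. A further 42 ESC-FCS control cells, a pool of 48 ESC-FCS cells and a pair of ESC-2i pools of 48 cells each served as a check. These libraries stand apart from the single cells of the main populations for short transcripts, as described in the last part, and no value for a main population rests on them.

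The transcripts carried a compact 3′ end. Among the 84 genes with at least 20 molecules, the median gene had 98.6% of its molecules at a single polyadenylation (PA) site, against 80.9% for the median of 5977 other genes. At least 90% of molecules lay at 1 site in 77.4% of the respiratory chain genes and in 36.0% of the others. For 63 of the 91 genes the main site was within 10 nt of an annotated transcript end. Of 84 genes whose letters could be read from the annotated transcripts, 62 had AATAAA within 40 nt before the main site, 14 had ATTAAA and 8 had neither. The last 30 bases before the main site are shown for 6 genes that the comparisons below turn on, from GRCm38 and in the direction of transcription, with the PA signal in capitals.
Atp5b (chr10:128090240-128090269, + strand): tatttaaagttttcAATAAAgtatataccc
Cox5b (chr1:36693353-36693382, + strand): tAATAAAgattagccattgcactggctcct
Cox6b1 (chr7:30616973-30617002, - strand): actactAATAAAaactcactggaaaagttt
Cox6b2 (chr7:4751794-4751823, - strand): ttgtgccacaAATAAAgttattgtgctgct
Ndufa11 (chr17:56722105-56722134, + strand): ccctgtgacaAATAAAcgctgtatgttcct
Ndufa12 (chr10:94220917-94220946, + strand): tgaccatgaacttgATTAAAattgtttgac
In the authors' site classes, the site of Ndufa11 lies elsewhere in the terminal exon and the other 5 lie within 10 nt of an annotated transcript end. Each of these sites held between 96.0% and 99.4% of the molecules of its gene. The counts of these 6 genes are therefore counts of essentially 1 transcript end each, and for Cox6b1 and Cox6b2 the ends carry different letters.

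All levels below are molecules of a gene per 10000 molecules on genes, summed over the cells kept of a population. The 91 genes together took 403 of every 10000 molecules for ESC-2i (interval 397 to 410), 345 for ESC-FCS (338 to 353) and 348 for NSC (339 to 358). The library batches of a population gave 422 and 387, 324 and 374, and 332 and 367. The ESC-FCS sum was thus 0.856 of the ESC-2i sum (0.833 to 0.880), although the spike-in scaling, which raised the median gene of that comparison by 0.98 on the log2 scale above 0, turned it to 1.76. Between pairs of library batches this ratio ranged from 0.767 to 0.968. NSC and ESC-FCS had a ratio of 1.01 (0.974 to 1.04), which fell below 1 to 0.887 with DESeq2 size factors, 0.847 with edgeR TMM factors and 0.398 with spike-ins. Against ESC-2i, NSC were at 0.863 (0.836 to 0.891; batch pairs 0.786 to 0.948), and no scaling turned that direction. Single cells spread widely, with 290 to 571 among ESC-2i (median 403), 253 to 469 among ESC-FCS (363) and 191 to 553 among NSC (348), so that the 3 populations overlapped.

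Compared with other genes, these genes were abundant. Their median level was 3.09 for ESC-2i, 2.69 for ESC-FCS and 3.09 for NSC, whereas the median detected gene was at 0.163, 0.176 and 0.263. In the 3 populations, 85, 85 and 82 of the 91 genes lay at or above that median. A median ESC-2i cell held molecules of 72 of the 91 genes, an ESC-FCS cell 60 and an NSC cell 53. With every cell thinned to 1000 molecules, the medians were 27.7, 24.6 and 25.4 genes, so most of the gap in the raw counts moved with depth.

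The most abundant member was Atp5b, the catalytic beta subunit of ATP synthase, at 30.2 for ESC-2i (28.4 to 32.0), 25.5 for ESC-FCS (23.5 to 27.7) and 21.7 for NSC (19.4 to 24.2). Every one of the 107 cells held at least 1 Atp5b molecule. Its lowest, median and highest cell levels were 16.2, 30.5 and 45.2 in ESC-2i, 9.27, 25.4 and 46.2 in ESC-FCS, and 5.49, 19.8 and 42.1 in NSC. The populations overlapped, and the ordering of their medians was that of the pooled levels. Cox6a1, a subunit of cytochrome c oxidase, had most molecules in complex IV over all cells, with levels of 14.0, 11.3 and 16.8, although Cox4i1 was above it in ESC-FCS at 14.3. In complex III the highest member was Uqcrq, a small subunit of the cytochrome bc1 complex, with 10.3, 6.75 and 10.5. Ndufa12 and Ndufa7, both accessory subunits, had most molecules in complex I over all cells, with NSC in opposite places: Ndufa12 stood at 5.32, 3.97 and 10.2, and Ndufa7 at 7.19, 6.84 and 3.82. In complex II, succinate dehydrogenase, the iron-sulfur subunit Sdhb had most molecules over all cells, at 2.93, 2.29 and 2.37, while in NSC Sdhd (2.57) and Sdha (2.50) were slightly above it, with overlapping intervals. The 8 assembly factors had far fewer molecules, between 3 and 24 per gene and population, and summed to 3.96, 3.22 and 3.75.

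**Figure D1:**
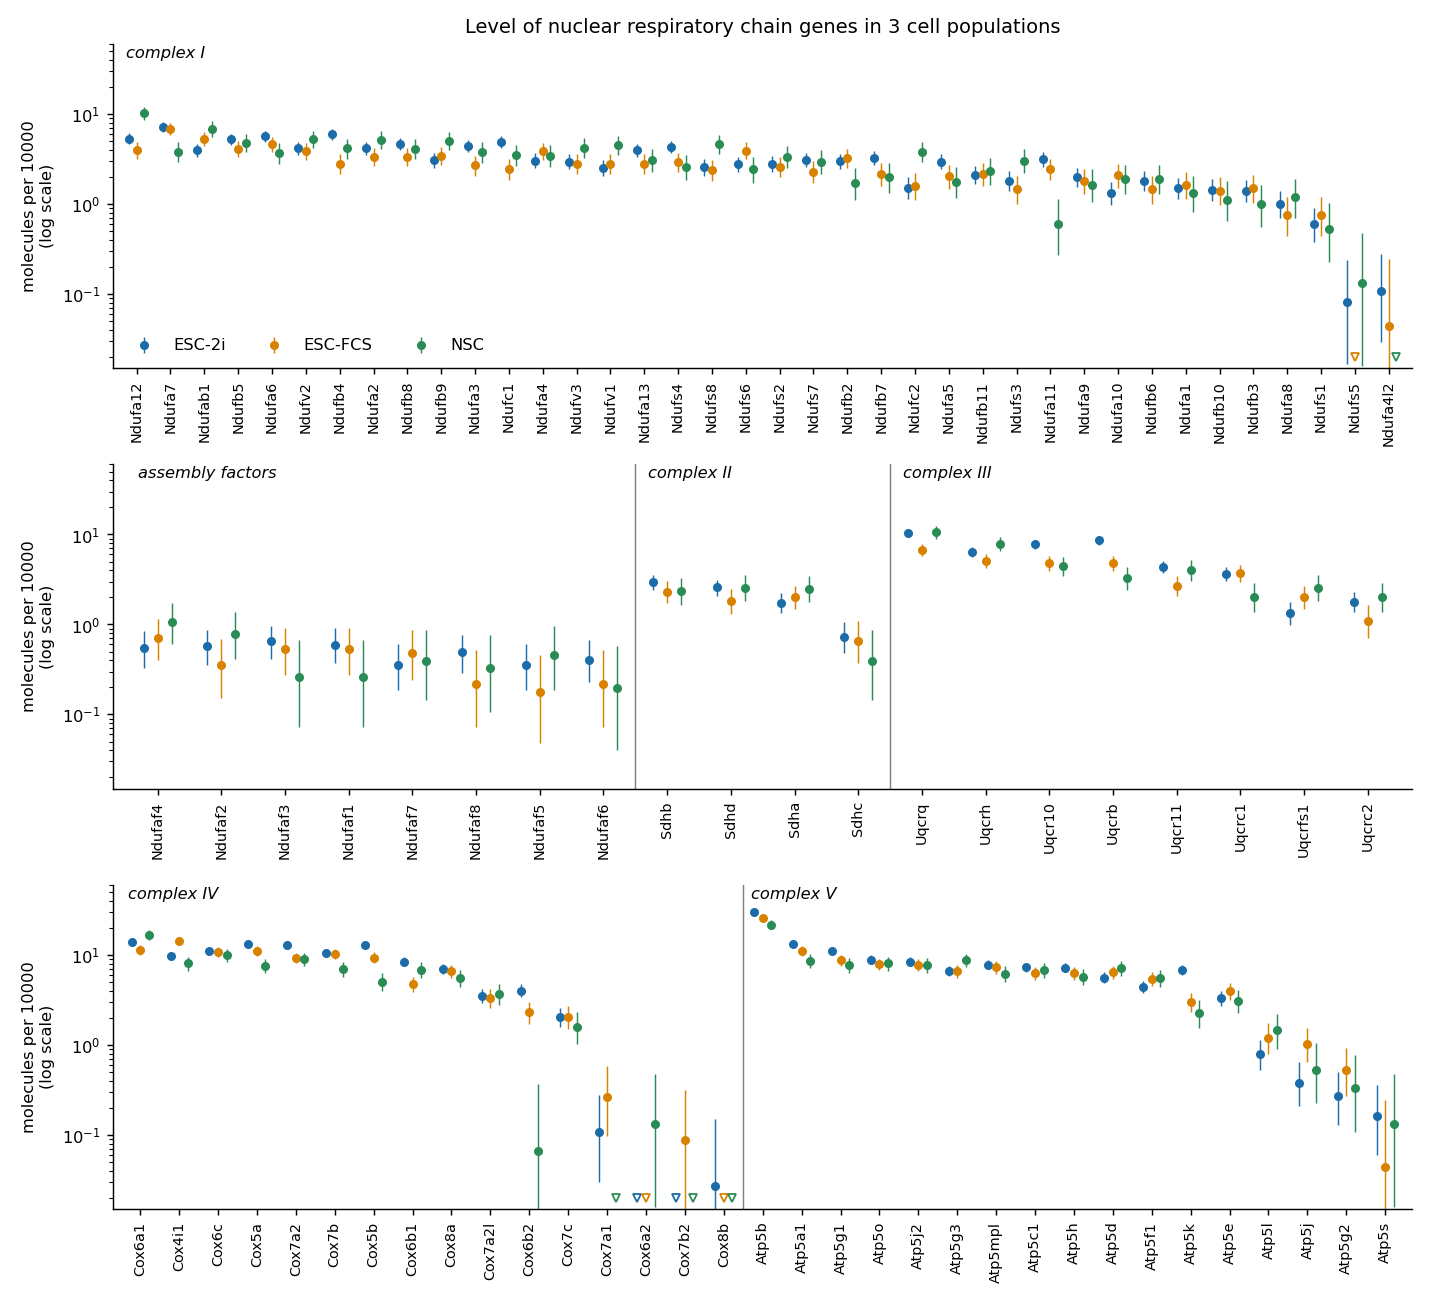
Level of each of the 91 genes by complex (molecules per 10000, log scale) in ESC-2i, ESC-FCS and NSC, with exact 95% Poisson intervals as bars and open triangles at the bottom for genes with 0 molecules. Most subunits lie between 1 and 20, Atp5b is highest, and Cox6b2 and Ndufa11 are the members whose NSC point lies far under both embryonic points.

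The plot of levels by complex shows that most subunits of a complex lay within the same order of magnitude. The exceptions at the bottom were of different kinds. Cox6a2, Cox7a1, Cox7b2 and Cox8b, known as forms of heart and skeletal muscle or testis, had at most 6 molecules in any population, and Ndufa4l2, known as a hypoxia-induced paralog of Ndufa4, at most 4. Ndufs5, a subunit of complex I, had 3, 0 and 2 molecules. By symbol, processed copies are annotated for Ndufa11, Ndufb4, Atp5k, Atp5l, Atp5c1, Uqcrh, Ndufab1, Ndufs6 and Cox6c. The authors removed reads that align to several places, so the counts of these genes are uncertain, those called different below included. The copies themselves held few molecules in the cells kept, 22 for Uqcrh-ps2, 5 for Ndufa11b, 6 for Ndufb4c and 2 for Atp5k-ps2, and copies under other symbols were not searched.

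A gene was called different between 2 populations where the ratio of pooled levels was at least 1.5 in either direction, with 20 or more molecules in both together and one direction throughout the 4 pairs of library batches. Between ESC-FCS and ESC-2i, 83 of the genes could be compared. Of these, 4 were called higher in ESC-FCS, against 15.2% of all 5007 genes compared, and 12 were called lower, against 21.5%. In either direction, 19.3% of the respiratory chain genes were called and 36.7% of all genes. Their median log2 ratio was -0.18 and that of all genes compared was -0.06. These directions hold relative to all molecules on genes. The spike-in scaling multiplied every ratio by 2.06 and gave 60 members higher and 0 lower, beside 2963 and 218 of all 5007 genes. TMM factors gave 2 members higher and 17 lower, beside 637 and 1256 of all genes.

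Complex III, the cytochrome bc1 complex that passes electrons from ubiquinol to cytochrome c, held 5 of the 12 lower genes. Its 8 genes summed to 44.2 for ESC-2i, 30.9 for ESC-FCS and 36.8 for NSC, so ESC-FCS was at 0.699 of ESC-2i (0.639 to 0.764; batch pairs 0.585 to 0.851), a direction that the spike-in scaling turned to 1.44. The pools also lay the other way, with 20.9 in the ESC-FCS pool and 10.4 in both ESC-2i pools together. The small subunit Uqcrb was at 8.58 in ESC-2i and 4.81 in ESC-FCS, a ratio of 0.561 (0.447 to 0.699). Its cells ranged from 3.91 to 16.4 (median 8.65) in ESC-2i and from 0 to 13.4 (median 4.72) in ESC-FCS, with overlap. Uqcr10 (0.614), Uqcr11 (0.616) and Uqcrq (0.656), further small subunits, and Uqcrc2 (0.616), a core protein on the matrix side, were the others. Uqcrfs1, the Rieske iron-sulfur protein that takes part in electron transfer, was called the other way at 1.53, with an interval of 0.998 to 2.33 that includes 1. Uqcrc1, the partner of Uqcrc2, stood at 3.66 and 3.71 and was not called.

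In complex V the gene with the smallest ratio was Atp5k, subunit e, which sits where ATP synthase dimers meet. It had 253 molecules in ESC-2i and 68 in ESC-FCS, at levels of 6.87 and 3.00, and the ratio was 0.437 (0.329 to 0.573). All 33 ESC-2i cells held the transcript (1.33 to 12.9 per cell, median 6.52), and 24 of 33 ESC-FCS cells did (0 to 9.27, median 2.45), so the groups overlapped. Atp5j, coupling factor 6 of the stalk, was called higher at 2.67 (1.32 to 5.61), from only 14 and 23 molecules. Atp5g2, 1 of the 3 genes for the c subunit of the rotor ring, was called higher from 10 and 12 molecules, with an interval of 0.772 to 5.04.

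Complex I gave 4 lower genes and 1 higher gene among 36 compared. The accessory subunits Ndufb4 and Ndufc1 had ratios of 0.467 (0.347 to 0.621) and 0.499 (0.362 to 0.679), and Ndufa3 and Ndufb7 had 0.604 and 0.664. Ndufb4 cells spanned 0 to 10.9 in ESC-2i (median 6.32) and 0 to 10.6 in ESC-FCS (median 2.42). Both ranges were therefore alike while the medians stood apart. Ndufa10 was called higher at 1.56 (1.02 to 2.37). In complex IV, the isoform pair Cox6b1 and Cox6b2 was lower together, at 0.561 (0.446 to 0.701) and 0.571 (0.408 to 0.788). None of the 4 genes of complex II and none of the 7 assembly factors compared was called.

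**Figure D2:**
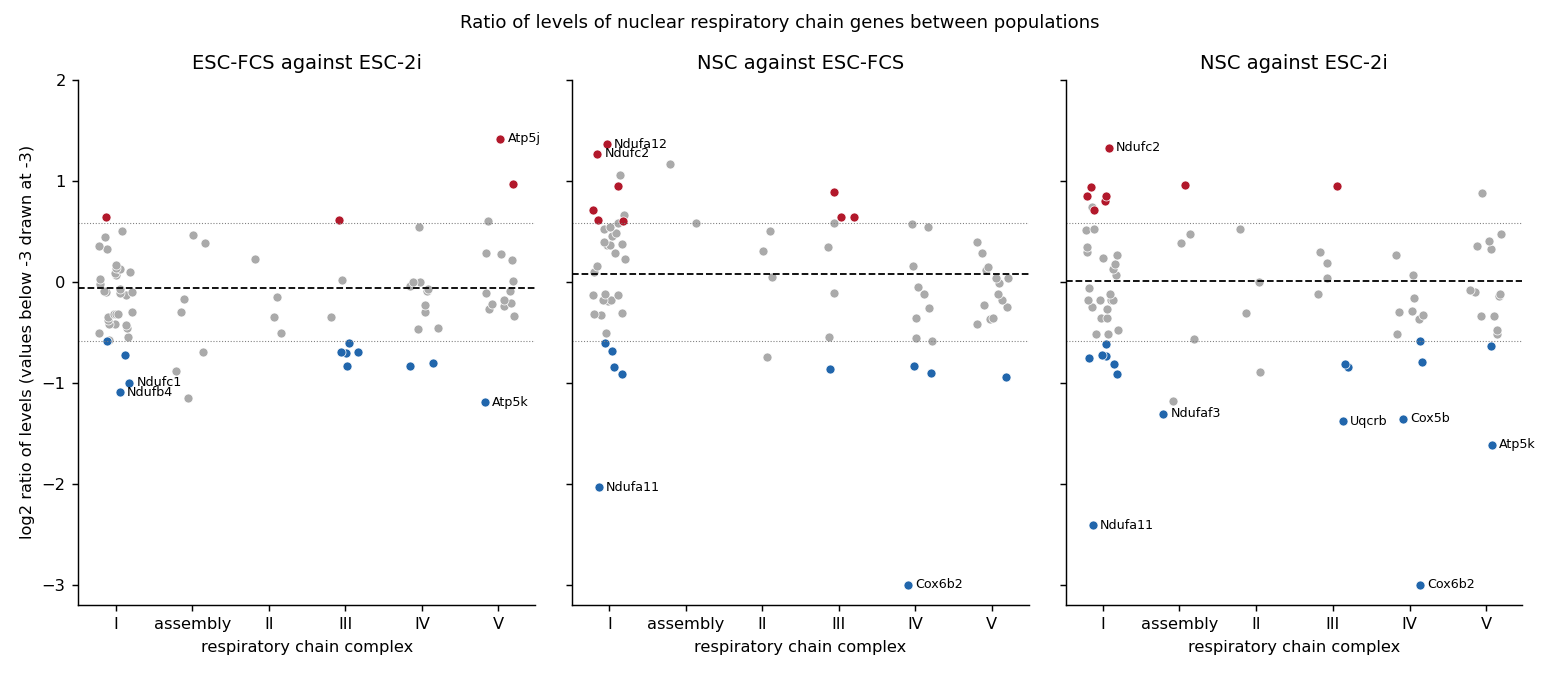
log2 ratio of pooled levels of each gene compared, by complex, for ESC-FCS against ESC-2i, NSC against ESC-FCS and NSC against ESC-2i. Red and blue points were called higher and lower, grey points were not called, dotted lines mark a ratio of 1.5 and the dashed line the median of all genes compared; Cox6b2 lies beyond the lower limit of -3 in both comparisons with NSC, and blue points gather in complex III in the first panel. With the spike-in scaling all points of the first panel move up by the same amount, and 0 members are called lower, beside 218 of all genes.

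Between NSC and ESC-FCS, 77 genes could be compared. In NSC, 9 were called higher, against 26.3% of 3600 genes, and 10 lower, against 23.6%. Between NSC and ESC-2i, 81 could be compared, of which 8 were higher in NSC, against 24.7% of 4803 genes, and 17 lower, against 29.3%. In either direction 24.7% and 30.9% of the respiratory chain genes were called, and 50.0% and 53.9% of all genes. The median log2 ratios were 0.04 and -0.18, beside 0.08 and 0.01 for all genes. The split moved with the scaling, for all genes as well. DESeq2 size factors gave 4 higher and 15 lower against ESC-FCS, beside 779 and 1050 of all genes. Against ESC-2i they gave 7 and 26, beside 976 and 1655. TMM factors gave 4 and 20, beside 685 and 1175, and 2 and 37, beside 792 and 1936. Spike-ins gave 0 and 70, beside 247 and 2366, and 3 and 35, beside 825 and 1793. In both comparisons 10 genes were called with the same direction, 6 lower and 4 higher. Both use the same NSC cells, and the share of all genes called in both was not counted. Nothing is therefore read from the number of these genes.

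The widest gap was in Cox6b2, the isoform of the cytochrome c oxidase subunit VIb known from testis, which sits on the intermembrane side of the enzyme. There were 148 Cox6b2 molecules for ESC-2i, 52 for ESC-FCS and 1 for NSC, at levels of 4.02 (3.40 to 4.72), 2.29 (1.71 to 3.01) and 0.0658 (0.00167 to 0.367). The transcript was seen in 30 of 33 ESC-2i cells, 24 of 33 ESC-FCS cells and 1 of 41 NSC cells. Thinned to 1000 molecules per cell, 10.6, 6.70 and 0.188 cells were expected to hold it. The ratio of NSC to ESC-2i was 0.0164 (0.000412 to 0.0927) and that of NSC to ESC-FCS 0.0287 (0.000713 to 0.167). Its ubiquitous paralog Cox6b1 stood at 8.42, 4.72 and 6.85 in the same cells and was found in 33, 29 and 32 of them, and it was not called in either comparison with NSC. Cox6b2 thus made up 32.3% of the molecules of the pair in ESC-2i (28.0 to 36.8), 32.7% in ESC-FCS (25.5 to 40.6) and 0.952% in NSC (0.0241 to 5.19). The batches gave 38.4% and 26.2%, 33.7% and 31.5%, and 0% and 1.85%, so no embryonic batch came near an NSC batch. In the ESC-FCS control cells the share was 41.3% and in the ESC-FCS pool 41.7%, while both ESC-2i pools together gave 20.4% (10.2 to 34.3) from 49 molecules of the pair.

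Both genes of this pair lie on the minus strand of chromosome 7, Cox6b1 at 30616861 to 30626151 and Cox6b2 at 4751792 to 4753094. Their promoters, from 250 bases before to 50 after the start, are shown because Cox6b2 had the smallest ratio in both comparisons with NSC and Cox6b1 is its paralog (RefSeq, GRCm38.p6). The capitals mark a match to the GABPA motif on either strand in Cox6b1 and to the GC box in Cox6b2.
Cox6b1 (chr7:30626065-30626364): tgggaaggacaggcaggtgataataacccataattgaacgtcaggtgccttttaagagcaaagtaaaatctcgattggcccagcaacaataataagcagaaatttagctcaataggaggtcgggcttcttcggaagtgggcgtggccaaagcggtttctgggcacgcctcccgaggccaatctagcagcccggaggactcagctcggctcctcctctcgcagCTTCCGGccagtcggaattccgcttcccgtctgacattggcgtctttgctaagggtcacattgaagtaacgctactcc
Cox6b2 (chr7:4753045-4753344): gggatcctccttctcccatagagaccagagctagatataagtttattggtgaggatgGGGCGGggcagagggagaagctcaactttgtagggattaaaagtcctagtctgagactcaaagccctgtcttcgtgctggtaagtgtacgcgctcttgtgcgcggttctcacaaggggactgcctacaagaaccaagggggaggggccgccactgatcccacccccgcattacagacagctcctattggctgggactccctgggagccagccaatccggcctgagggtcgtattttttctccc
Of the 91 genes, 76 were matched to RefSeq, with 81 promoters of 300 bases, and 5 motifs were searched on both strands in these and in all 32851 promoters. GCGCANGC, the core of the NRF1 motif, occurred in 33.3% of the 81 and in 9.95% of all promoters. CCGGAAG, the GABPA motif, occurred in 22.2% and 8.86%, and GCCATNTT, the YY1 motif, in 23.5% and 6.05%. TATAAA was found in 9.88% and 13.6%, and the GC box GGGCGG in 44.4% and 35.7%. The Cox6b1 window held the GABPA letters and none of the other 4 motifs, and the Cox6b2 window held the GC box and none of the other 4.

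Ndufa11, an accessory subunit of the membrane arm of complex I, was the gene with the next smallest ratio in NSC, and 1 of those with an annotated processed copy. Its molecules numbered 116 for ESC-2i, 55 for ESC-FCS and 9 for NSC, at levels of 3.15 (2.60 to 3.78), 2.43 (1.83 to 3.16) and 0.593 (0.271 to 1.12). In ESC-2i, 29 of 33 cells held it (0 to 9.02, median 3.54), in ESC-FCS 23 of 33 (0 to 13.4, median 2.46) and in NSC 9 of 41 (0 to 7.10, median 0), each of the 9 with 1 molecule. The ratios of NSC were 0.188 to ESC-2i (0.0839 to 0.370) and 0.244 to ESC-FCS (0.106 to 0.498). Cell levels overlapped through the few NSC cells with a molecule, and the 4 batch pairs against ESC-2i lay between 0.156 and 0.225.

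Cox5b, a subunit of cytochrome c oxidase that faces the matrix, was graded over the main cells of the 3 populations. It stood at 12.8 for ESC-2i (11.7 to 14.0), 9.35 for ESC-FCS (8.14 to 10.7) and 5.00 for NSC (3.94 to 6.26). Cells ran from 4.30 to 30.1 for ESC-2i (median 13.0), from 3.02 to 16.7 for ESC-FCS (8.92) and from 0 to 23.3 for NSC (4.86). The NSC ratios were 0.391 (0.302 to 0.498) and 0.535 (0.406 to 0.698). The intervals of the 3 pooled levels did not overlap, while the cells did. The ESC-FCS control cells were at 4.71, under the NSC level, so the step from ESC-FCS to NSC was not seen with them. Complex IV as a whole summed to 109, 95.9 and 81.1, and NSC were at 0.743 of ESC-2i (0.696 to 0.792), lower with each of the scalings tried. Its other called genes were Cox5a, the partner of Cox5b, at 0.577 of ESC-2i, Cox7b at 0.665 of ESC-2i and Cox4i1, the largest nuclear subunit, at 0.560 of ESC-FCS (0.451 to 0.692). None of the 12 complex IV genes compared was called higher in NSC. The remaining genes lower in NSC against both were Ndufb2 (0.568 of ESC-2i and 0.532 of ESC-FCS), Ndufa7 (0.531 and 0.558) and Uqcrc1 (0.557 and 0.551). In the ESC-FCS control cells they were at 1.48, 3.86 and 3.68, beside 1.71, 3.82 and 2.04 in NSC. With those cells Ndufb2 thus lay the other way and Ndufa7 was nearly level.

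The 4 genes higher in NSC against both embryonic populations all belong to complex I. That complex held 36 of the 77 genes compared with ESC-FCS and 36 of the 81 compared with ESC-2i. They were Ndufa12 and Ndufc2, accessory subunits, Ndufs8, which holds iron-sulfur clusters, and Ndufv1, which binds FMN and NADH. Ndufa12 stood at 5.32 for ESC-2i (4.60 to 6.12), 3.97 for ESC-FCS (3.19 to 4.88) and 10.2 for NSC (8.66 to 11.9). Its cells ran from 0 to 9.03 for ESC-2i (median 5.02), from 0 to 15.8 for ESC-FCS (3.72) and from 0 to 35.0 for NSC (7.83), with overlap. NSC were at 1.92 of ESC-2i (1.54 to 2.38) and 2.57 of ESC-FCS (1.97 to 3.37), with batch pairs from 1.83 to 3.32 over both comparisons. Ndufc2 was at 1.52, 1.59 and 3.82, with NSC ratios of 2.51 (1.71 to 3.69) and 2.40 (1.56 to 3.75). Ndufs8 was at 2.55, 2.38 and 4.61 and Ndufv1 at 2.52, 2.78 and 4.54. With spike-ins, every NSC to ESC-FCS ratio below 2.53 fell under 1, those of Ndufc2, Ndufs8 and Ndufv1 included. Against ESC-2i, no scaling tried turned a ratio above 1.27. TMM factors multiplied ratios to ESC-2i by 0.790 and left 2 members called higher, beside 792 of all genes. Ndufab1, the acyl carrier protein, and Ndufb9 were higher only against ESC-2i by this rule, at 1.74 and 1.63, and whether the comparisons differ was not tested.

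**Figure D3:**
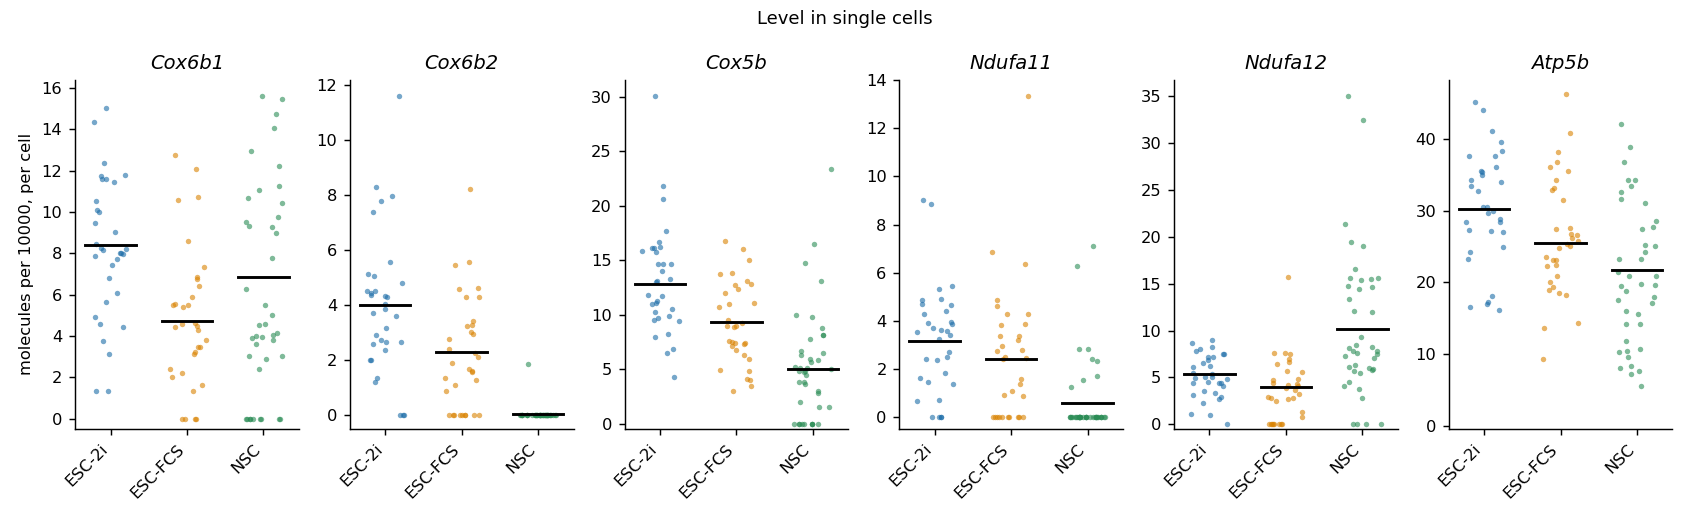
Level in every cell kept (molecules per 10000 molecules of the cell) of 6 genes in ESC-2i, ESC-FCS and NSC, with the pooled level of the population as a black line. Cox6b2 is at 0 in all but 1 NSC cell and Ndufa11 in all but 9, Ndufa12 reaches 35.0 in NSC, and Atp5b is above 0 in every cell.

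Complex I as a whole did not follow complex IV. Its 38 genes summed to 116 for ESC-2i, 99.5 for ESC-FCS and 117 for NSC, a ratio of NSC to ESC-2i of 1.01 (0.959 to 1.07) that was 0.801 with TMM factors and 0.825 with spike-ins. Within it, 6 of 36 genes were called higher and 7 lower in NSC than in ESC-2i. Complex II summed to 7.98, 6.79 and 7.84 and none of its genes was called in any comparison. Complex V summed to 122, 109 and 101, with Atp5k at 0.326 of ESC-2i in NSC (0.221 to 0.467) and Atp5a1, the alpha subunit, at 0.642 (0.525 to 0.781). In complex III, NSC against ESC-2i gave Uqcrb lower at 0.384 (0.279 to 0.518), Uqcr10 lower at 0.568 and Uqcrfs1 higher at 1.93 (1.23 to 3.00). Uqcrq (1.56), Uqcrh (1.56) and Uqcrc2 (1.85) were higher in NSC than in ESC-FCS, where their levels had been lowest. Other genes higher against ESC-FCS were Ndufa2 (1.53) and Ndufv3 (1.52), and lower ones were Ndufs6 (0.620), Atp5j (0.519, 0.201 to 1.20) and Ndufb3 (0.658, 0.333 to 1.24). Further genes lower in NSC than in ESC-2i were Ndufs4 (0.591), Ndufa5 (0.601), Ndufb7 (0.606) and Ndufa6 (0.653). Among assembly factors, Ndufaf3 was called lower at 0.404 (0.102 to 1.18) and Ndufaf4 higher at 1.94 (0.940 to 3.94), both with intervals that include 1.

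The 3 genes that encode the same c subunit of ATP synthase were used in different proportions. Atp5g1 gave 61.7% of their molecules in ESC-2i (57.9 to 65.4), 55.0% in ESC-FCS (49.7 to 60.2) and 46.1% in NSC (39.8 to 52.4), and Atp5g3 gave 36.8%, 41.7% and 52.0%. Atp5g2 stayed between 1.52% and 3.33%. The Atp5g1 share was 54.2% in one NSC batch and 33.7% in the other, while the ESC-FCS batches were at 57.1% and 52.3%, so the NSC value differed between its own batches by more than it differed from ESC-FCS. In the Cox7a family, Cox7a2, the ubiquitous form, made up 77.9%, 72.2% and 70.8%, and Cox7a2l, known as a supercomplex factor, nearly all of the rest.

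The respiratory chain subunits of the mitochondrial genome were read in the same libraries, though the methods state that reads on that genome were removed. The 13 genes summed to 127 molecules per 10000 for ESC-2i, 126 for ESC-FCS and 418 for NSC (408 to 429). NSC were at 3.29 of ESC-2i (3.16 to 3.41) and 3.31 of ESC-FCS (3.17 to 3.46), and at 2.67 and 1.31 with spike-ins, so higher under each scaling tried. The NSC batches stood apart at 498 and 331. By the same call, 8 of the 13 were higher in NSC in each comparison and 0 lower. Of all genes, 26.3% were higher against ESC-FCS and 24.7% against ESC-2i. Too few molecules were seen to compare mt-Co2, mt-Nd3, mt-Nd4l and mt-Nd6. In NSC, mt-Nd1, mt-Nd2, mt-Nd4 and mt-Cytb gave 911, 1705, 1251 and 2169 of the 6355 molecules, so the sum rests mainly on them. Only mt-Co3 was lower in ESC-FCS than in ESC-2i, from 4 and 28 molecules, where 21.5% of all genes were. All molecules of the mitochondrial genome were 1.72%, 1.95% and 5.09% of the molecules on genes. The nuclear subunits, at 348 against 403 and 345, did not share this difference. Without mitochondrial genes in the total, NSC were at 0.894 of ESC-2i and 1.04 of ESC-FCS in the nuclear sum.

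**Figure D4:**
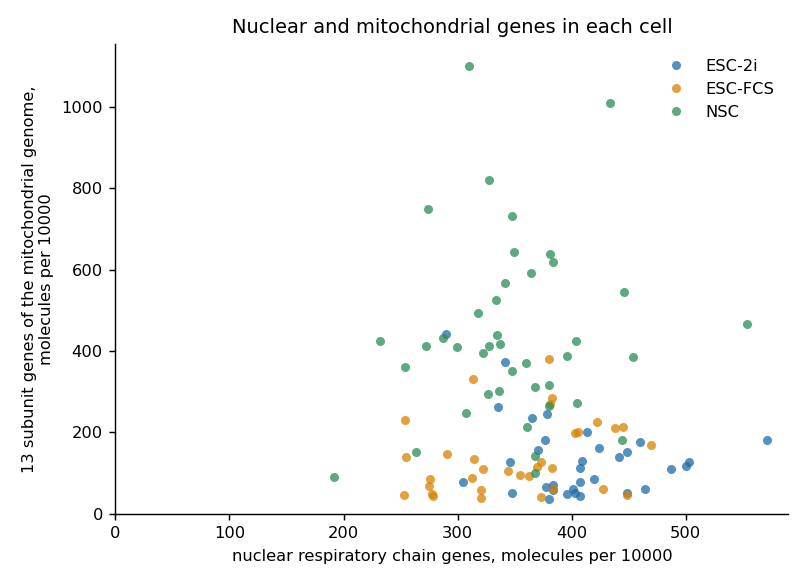
Summed level of the 91 nuclear genes (x axis) and of the 13 subunit genes of the mitochondrial genome (y axis) in each cell kept, both in molecules per 10000. NSC cells lie higher on the y axis (median 412, against 119 in ESC-2i and 112 in ESC-FCS) and in the same range on the x axis.

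Across cells of a population, the nuclear and mitochondrial sums were weakly related, with Spearman's rho of -0.07 over 33 ESC-2i cells, 0.37 over 33 ESC-FCS cells and 0.16 over 41 NSC cells, and Pearson's r of -0.22, 0.32 and 0.24. The sums of complex I and complex V had rho of 0.50, 0.61 and 0.46. In the first relation the nuclear sum was taken per molecules outside the mitochondrial genome, and the mitochondrial sum per all molecules on genes. These are descriptions only, since both sums of a cell come from its library, and those of complexes I and V also share its total. Variation between cells was then set against the technical noise of the ERCC spike-ins by the test of Brennecke and colleagues, with a biological squared coefficient of variation (CV2) of 0.25 as margin and a Benjamini-Hochberg adjusted p below 0.1 as threshold. Of the respiratory chain genes, 0 of 79 passed in ESC-2i, where 0.608% of all genes tested did, and 0 had an unadjusted p below 0.05. In ESC-FCS 1 of 72 passed, beside 3.36% of all genes, and in NSC 1 of 62, beside 10.7%. Both were Ndufb6, an accessory subunit of complex I, with an adjusted p of 0.0130 and a CV2 of 3.75 in ESC-FCS and an adjusted p of 0.0411 and a CV2 of 2.86 in NSC by this test. Ndufb6 cells ran from 0 to 13.4 in ESC-FCS (median 0.924) and from 0 to 15.3 in NSC (median 0), with at most 5 molecules in a cell. In NSC cells with at least 2000 molecules, 0 of 63 genes passed, beside 27 of all 1448, and Ndufb6 was no longer among the calls. On simulated data the test made false calls in ESC-FCS while its shallowest cell was included. In the 32 ESC-FCS cells with at least 2000 molecules, which leave that cell out, 1 of 72 genes passed, again Ndufb6, beside 47 of all 2115.

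Few genes were called shifted in PA site use between populations. Some genes did use several sites, such as Uqcrc2 and Atp5a1 with 36.1% and 47.7% of molecules at the main site. A gene was called shifted where the share of the distal of its main pair of sites differed by at least 10 percentage points, given 20 or more molecules per population and one direction throughout the batch pairs. Between ESC-FCS and ESC-2i 1 of 61 genes was called, beside 11.2% of all genes, between NSC and ESC-FCS 3 of 58, beside 11.7%, and between NSC and ESC-2i 3 of 59, beside 14.2%. With a median of 98.6% of molecules at 1 site, against 80.9% for other genes, most of these genes had less room for such a shift. The shares called are therefore not like for like. Of the genes called, Ndufc1, an accessory subunit of complex I, differed most, with 26.4% distal in ESC-2i (20.1 to 33.5, 178 molecules), 32.1% in ESC-FCS (19.9 to 46.3, 53 molecules) and 50.9% in NSC (36.8 to 64.9, 53 molecules). Its sites are only 24 nt apart on the minus strand of chromosome 3. No signal was found within 40 nt before the distal site, and that of the proximal site starts just upstream of this window. The letters before each site are shown, with the PA signal in capitals.
Ndufc1 proximal (chr3:51405481-51405510): aagttaaagaAATAAAaatactcgcgctcc
Ndufc1 distal (chr3:51405457-51405486): cgctcctcatgtgtagacggagtcactggt
Ndufa6, with sites 25 nt apart, had 16.6%, 19.6% and 30.4% distal. Sdha, the flavoprotein of complex II, had sites 558 nt apart and 50.0%, 59.5% and 64.9% distal, which was called between NSC and ESC-2i. Cox7c, a small subunit of complex IV, had 100%, 84.1% and 100% distal, from 74, 44 and 24 molecules. Its proximal and distal sites lie 910 nt apart.

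Among 39 related genes outside the symbol rule (cytochrome c, assembly factors and other ATP synthase genes), which summed to 35.8, 31.2 and 32.1, few could be compared. Of 23 compared between ESC-FCS and ESC-2i, 2 were called higher and 4 lower in ESC-FCS, where 15.2% and 21.5% of all genes were. In NSC against ESC-FCS, 3 of 14 were called higher and 0 lower, beside 26.3% and 23.6% of all genes. Against ESC-2i, 3 of 21 were called higher and 4 lower, beside 24.7% and 29.3%. These small counts are given as they are, with nothing read from them about the list. Tmem70, an assembly factor of ATP synthase, and Cox14, one of complex IV, were higher in NSC against both, at 7.28 and 1.80 of ESC-2i and 3.58 and 2.49 of ESC-FCS. They rest on few molecules, 8, 10 and 24 for Tmem70 and 27, 12 and 20 for Cox14, in the order ESC-2i, ESC-FCS and NSC. Cox17, the copper chaperone of complex IV, was at 0.335 of ESC-2i and Atpif1, the inhibitor of ATP synthase, at 0.618. In NSC they had 12 and 91 molecules, and in ESC-2i 87 and 357. Of the 12 regulators listed, 11 are in the table, and the same shares of all genes apply to them. In ESC-FCS against ESC-2i, 2 of 8 compared were higher and 0 lower, Tfam (2.13) and Polrmt (2.44), which serve transcription of the mitochondrial genome. Both rest on few molecules, 13 in ESC-2i and 17 in ESC-FCS for Tfam and 8 and 12 for Polrmt, and intervals are not given. In NSC, 0 of 5 were called against ESC-FCS, and of 7 compared with ESC-2i 0 were higher and 1 lower, Gabpa at 0.373. Gabpa had 26 molecules in ESC-2i and only 4 in NSC.

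The genes are short, and transcript length moved with several of these ratios. Their median transcript is 732 nt (315 to 3632), and 47.3% are under 700 nt, against 4.00% of 14716 genes of the table with a length. Among all genes under 700 nt, respiratory chain genes included, the median ratio was 0.939 for ESC-FCS against ESC-2i, 0.876 for NSC against ESC-FCS and 0.804 for NSC against ESC-2i, and among respiratory chain genes of that class 0.806, 0.920 and 0.816. At 3000 nt or more, the median ratio of all genes was 0.935, 1.15 and 1.05. The part of length in these ratios was not tested.

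**Figure D5:**
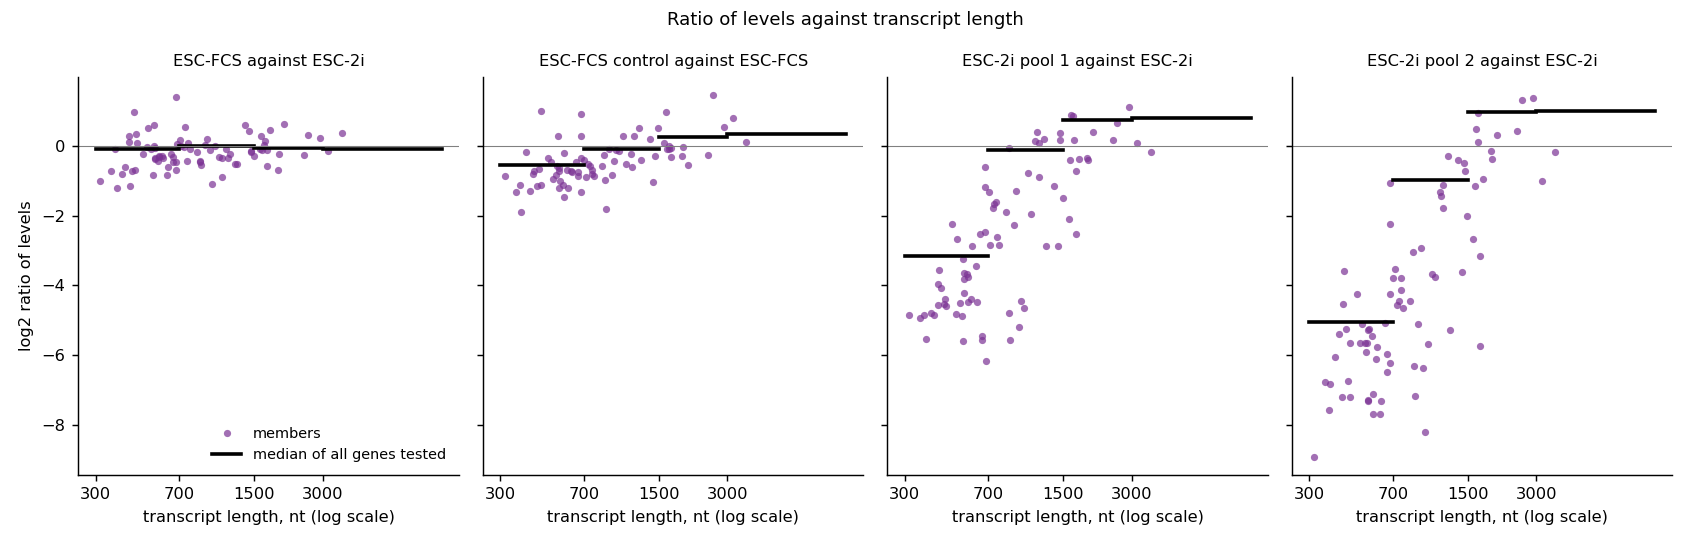
log2 ratio of levels against transcript length (nt, log scale) for ESC-FCS against ESC-2i cells, ESC-FCS control against main ESC-FCS cells and each ESC-2i pool against ESC-2i cells, with respiratory chain genes as points and the median of all genes of a length class as black lines. The points and lines of short classes fall far below 0 in both pools, with medians of 0.0501 and 0.0194 for respiratory chain genes under 700 nt.

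In the check libraries the relation to length was stronger. The ESC-FCS control cells had a summed level of 261 where the main ESC-FCS cells had 345, and the ESC-FCS pool had 246. The ESC-2i pools had 122 and 87.0, against 403 in single ESC-2i cells. Respiratory chain genes under 700 nt had a median ratio of 0.603 in control against main ESC-FCS cells, 0.520 in the ESC-FCS pool, and 0.0501 and 0.0194 in the ESC-2i pools, while all genes of 3000 nt or more had 1.26, 1.51, 1.73 and 2.01. With the control cells in place of the main ESC-FCS cells, all 12 genes lower in ESC-FCS than in ESC-2i remained past 1.5-fold. They were among 42 of 80 that were then lower, while all genes then gave 1348 higher and 1315 lower. Between the pools 0 of the 12 had the same direction. Of the 4 higher genes, 4 had the same direction in the pools and 3 with the control cells, with Atp5g2 opposite.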

How the data were processed

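BATSeq counts of single cells and pools were used. The authors deposited counts of UMIs (transcript molecules) per PA site and per gene in each cell, without normalization, made by aligning trimmed reads to GRCm38 with spike-ins, removing reads that were not unique, short, A-rich or internally primed, merging UMIs, and merging positions within 12 nt. HTSeq and R 3.0.2 stand in the submitters' processing notes. The demand for unique alignment lowers the counts of genes with near-identical copies.

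Groups came from the labels, and columns left unmapped numbered 0. Levels were pooled over the cells of the gene table. Ratios have exact conditional Poisson intervals and shares exact Clopper-Pearson intervals. Calls asked for a ratio of 1.5, 20 molecules and all 4 batch pairs. The variability test was written anew and tested on simulated data, where it made false calls in ESC-FCS while the shallowest cell was included. Lengths (longest coding sequence) and ends are from GENCODE M21 and promoters from RefSeq. Thinned values are expectations at 1000 molecules.

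Named genes were those past 1.5-fold (up to 10 each way), the member with most molecules of each complex, all paralogs, variable genes and up to 5 shifted genes per comparison. The members, lists and rules were chosen with earlier results of these data known. Alternatives changed the cells kept, the scaling, thresholds and libraries. Software was Python 3.11.15, numpy 2.4.6, scipy 1.17.1, pandas 2.3.3, matplotlib 3.10.9, R 4.3.3, edgeR 4.0.16 (TMM factors) and DESeq2 1.42.0 (size factors).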

Additional observations from a re-analysis of the deposited data

How the results depend on the processing

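For the nuclear sum, ESC-FCS against ESC-2i was 0.805 with TMM factors, 1.76 with spike-ins, 0.648 with control cells, 0.767 and 0.968 in library batches 1 and 2, 2.35 between pools and 2.00 to 2.82 when either ESC-2i pool was left out. NSC against ESC-FCS was 0.887 with DESeq2 size factors, 0.847 with TMM, 0.398 with spike-ins and 1.33 with control cells. NSC against ESC-2i was 0.894 without mitochondrial genes, 0.757 with DESeq2, 0.682 with TMM, 0.702 with spike-ins, and 0.786 and 0.948 in the batches. These scalings moved the median log2 ratio of all genes to 0.98, -1.27 and -0.29 (spike-ins), -0.15, -0.18 and -0.33 (TMM) and -0.07, -0.11 and -0.18 (DESeq2) in the same order of comparisons.

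The 16 called genes of ESC-FCS against ESC-2i became 47 with control cells, 4 at a fold of 2, 63 between pools and 60 to 63 with a pool left out. The 19 of NSC against ESC-FCS became 40 with control cells and 4 at a fold of 2, and the 25 of NSC against ESC-2i became 39 with TMM and 7 at a fold of 2. With control cells, all genes gave 1348 higher and 1315 lower for ESC-FCS against ESC-2i. For NSC against ESC-FCS they gave 970 and 1245. Counts of all genes at a fold of 2 and between pools are not given here. Between pools, ratios turned above 1 for Uqcr11 (12.3), Uqcrb (8.78), Ndufb4 (5.03), Uqcrc2 (1.02), Ndufb7 (18.3), Ndufa3 (11.4), Cox6b1 (6.81), Uqcrq (8.97), Atp5k (7.59), Cox6b2 (19.0) and Uqcr10 (4.40), and for Ndufc1 (6.80), which had only 10 and 8 molecules there. In NSC against ESC-FCS, control cells turned Ndufb2 (1.15), Ndufs6 (1.20), Ndufb3 (1.16) and Cox5b (1.06), and the mean of cell levels turned Ndufb3 (1.01). The cause was not tested, and transcript length moved with the ratios in pools and control cells.

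Variable members in ESC-FCS numbered 4 with a margin of 0, and 0 with a margin of 0.5, in batch 1 or at means above 1. In NSC they were 10 with a margin of 0, and 0 with a margin of 0.5, in cells of at least 2000 molecules, in batch 2 or at means above 1. Ndufb6 had normalized means of 0.919 in ESC-FCS and 0.715 in NSC. The filter on means above 1 thus left it out before testing and is no check of its call. Of all genes, 193 of 2026 in ESC-FCS and 342 of 1157 in NSC passed with a margin of 0. With a margin of 0.5, 34 and 51 did. At 20 points, 0, 0 and 1 genes were shifted in the 3 comparisons, and in ESC-FCS against ESC-2i 0 at 50 molecules and 2 with all 48 cells. No paired analysis was possible because the numbers in the labels name cells and not cultures, and no test between populations was made. Depth limits members under 20 molecules.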
